A study of Mus musculus with 2 samples.

Results

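The cells described here are those of MC38 tumours that the deposited annotation calls CD4 in library 2, beside separate labels for CD8 cells and for regulatory T cells (Tregs). They numbered 64 of the 10476 annotated cells of that library, and the annotation placed 25 of them in cluster 59 and 39 in cluster 35. The name CD4 cells below means cells with this label, and not all of them had the markers of conventional CD4 T cells. With some cells counted more than once, 18 carried CD8 chains and no Cd4, 7 carried γδ T cell receptor genes, 4 carried Foxp3 and 6 were rich in macrophage markers. MC38 is a transplantable mouse colon adenocarcinoma line, grown here under the skin of mice carrying human Fc receptors. Tumour leukocytes were sorted for CD45 at 4 days after treatment with antibodies to mouse GITR built on human IgG1, at 100 µg per mouse in 2 injections 3 days apart. The annotation calls GA-aFuc an agonist with an enhanced Fc part (2 mice of library 2), GITR/Syn GA-aFuc a non-agonist with an enhanced Fc part (2 mice) and N297A an agonist with a null Fc part (1 mouse). The Untreated mice (1 mouse) are the controls, for which the series names PBS. Each mouse is named by its treatment and a number that only tells mice apart: GA-aFuc 2 and 3, GITR/Syn GA-aFuc 2 and 3, N297A 3 and Untreated 3. The other 6 mice, in library 1, enter below only through their cell labels.

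CD4 T cells recognise peptides on MHC class II with the help of the CD4 coreceptor, while CD8 T cells use CD8 on MHC class I. Conventional CD4 T cells act largely as helpers: they display CD40 ligand (Cd40lg), which matures dendritic cells through CD40, and release cytokines that direct other leukocytes. Activated helpers and Tregs both carry ICOS, OX40 (Tnfrsf4) and GITR (Tnfrsf18), the receptor that the antibodies bind.

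Each molecule was counted once through its unique molecular identifier (UMI), and levels are pooled counts per 1000000 UMIs (CPM). The 64 cells held 491589 UMIs, 196338 of them in cluster 59 and 295251 in cluster 35. The median cell had 6287 UMIs, against 8505 in 542 CD8 cells, 8403 in 604 NK cells and 6675 in 24 Tregs. Each mouse gave between 5 and 19 CD4 cells, or 0.260% to 1.10% of its annotated cells. The basis of the clusters and cell types is not stated in the files, and they may have been cut from these same counts, so comparisons between them are given as descriptions with no test. A gene is called past the fold where pooled levels differ at least 2 fold among genes with at least 20 UMIs.

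The markers bore out T cell identity, but the coreceptor went against the label in part of the cells. A UMI of Cd3d, Cd3e or Cd3g, chains of the T cell receptor complex, was found in 63 of the 64 cells, and 55 cells carried at least 3 of the markers Cd4, Cd3e, Icos, Tnfrsf4, Cd40lg and Rora. Cd4 was detected in 30 of 64 cells (46.9%, exact 95% interval 34.3% to 59.8%, counting error only). The same gene was detected in 18 of 542 CD8 cells (3.32%) and in 1 of 604 NK cells (0.166%), which had deeper counts. With each cell thinned to 2000 UMIs, Cd4 was found in 25.6% of CD4 cells, 1.37% of CD8 cells and 0.0391% of NK cells.

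By coreceptor, 28 cells carried Cd4 alone, 18 carried Cd8a or Cd8b1 alone, 2 carried both kinds and 16 carried neither. Cd8a and Cd8b1 encode the 2 chains of CD8. Cells with neither were shallower, with a median of 4909 UMIs, than those with Cd4 alone, with a median of 6413 UMIs. Within cluster 35 these medians were 5626.5 and 6073.5 UMIs. Some cells with neither carried genes of the γδ T cell receptor, and the part of depth was not tested. Cluster 59 held 10 cells with Cd4 alone, 13 with Cd8a or Cd8b1 alone and 2 with neither. Cluster 35 held 18 with Cd4 alone, 5 with Cd8a or Cd8b1 alone, 2 with both and 14 with neither. Most of the Cd8a signal, 75 of 83 UMIs, came from 1 animal: each of the 11 cluster 59 cells of GA-aFuc 2 carried Cd8a and Cd8b1 UMIs, between 5 and 18 in sum, and 0 Cd4 UMIs. The share of cells with Cd8a was 26.6% in CD4 cells, against 89.1% in CD8 cells and 0.993% in NK cells. Pooled Cd8a stood at 169 CPM in CD4 cells and 610.2 CPM in CD8 cells. By mouse it was 601 and 12.3 CPM in the GA-aFuc mice, 27.6 and 0 CPM in the GITR/Syn GA-aFuc mice, 53.9 CPM in the N297A mouse and 0 CPM in the Untreated mouse. A set of 12 cells in cluster 59 therefore lacked any CD8 chain, and 0 of them came from GA-aFuc 2.

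**Figure D1:**
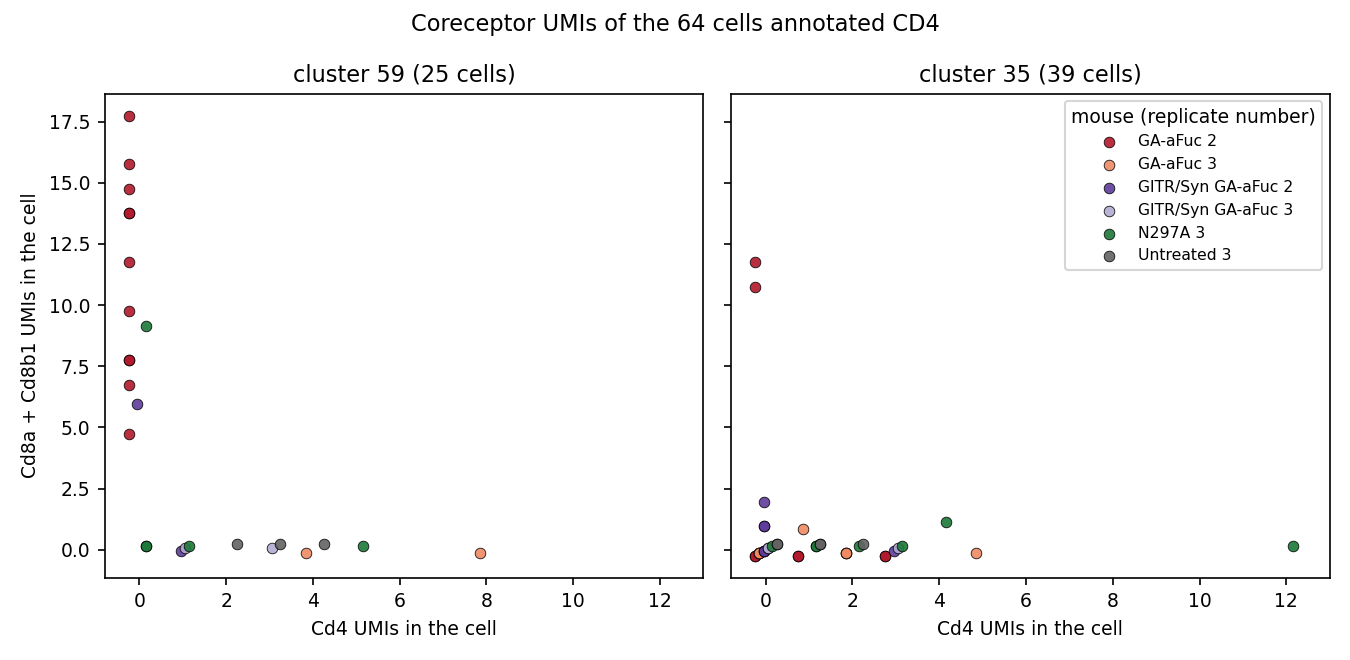
Coreceptor UMIs of the 64 cells annotated CD4. Each point is a cell, with its Cd4 UMIs on the x axis and the sum of its Cd8a and Cd8b1 UMIs on the y axis, in cluster 59 (left) and cluster 35 (right), coloured by mouse; points are shifted slightly by mouse, and cells of 1 mouse with equal counts coincide. The cluster 59 cells of GA-aFuc 2 lie along the y axis between 5 and 18 Cd8 UMIs.

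**Figure D2:**
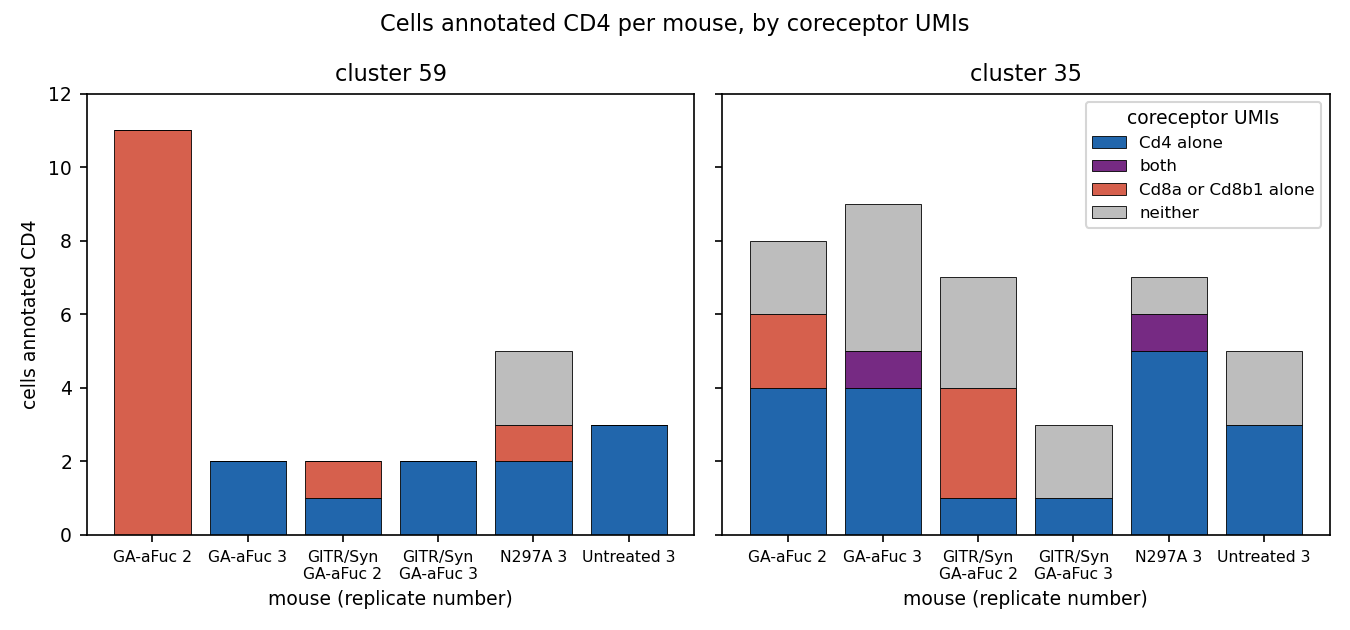
Number of cells annotated CD4 per mouse (y axis, cells) in cluster 59 (left) and cluster 35 (right), stacked by which coreceptor UMIs a cell carried. GA-aFuc 2 gave 11 of the 25 cluster 59 cells, and all 11 carried Cd8a or Cd8b1 alone.

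Cluster 35 was mixed in other ways. It held 6 cells in which 6 macrophage markers made up 0.665% to 1.85% of UMIs, against 0.0135% to 0.228% in the other 58 cells. The markers were C1qa, C1qb, C1qc, Apoe, Csf1r and Adgre1. These macrophage-rich cells had a median of 18007 UMIs, against 6038 in the other cells, and a median of 6200 hashtag counts, against 1668. GITR/Syn GA-aFuc 2 gave 4 of the 6. The summed macrophage markers were 3779 CPM in GA-aFuc 3, 7486 CPM in GITR/Syn GA-aFuc 2 and 5252 CPM in Untreated 3, and at most 689 CPM in the remaining mice. UMIs of Trdc or Trgc1, constant chains of the γδ T cell receptor, were found in 7 of 39 cluster 35 cells and 0 of 25 cluster 59 cells (exact 95% interval up to 13.7%). Trdc was found in 5 of 64 CD4 cells, 12 of 542 CD8 cells and 159 of 604 NK cells, so by itself it does not mark a γδ T cell. Trgc1 was found in 6, 13 and 5 cells of these types. Among all 64 cells, Foxp3, the transcription factor that defines Tregs, was found in 4 cells, all of cluster 35, against 13 of 24 Tregs and 2 of 542 CD8 cells. Pooled Foxp3 was 57.6 CPM in cluster 35, against 237 CPM in Tregs. Ncr1, Klrb1c and Eomes, defining genes of NK cells, had 0 UMIs in the 64 cells, where 3 UMIs would have been 6.10 CPM. Some results that rest on the Cd8-carrying or macrophage-rich cells are given below with and without them. The part of these cells in the other results was not tested.

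Among the 6 markers, CD40 ligand had the highest ratio over CD8 cells, at 4.74 on the log2 scale. In CD4 cells it stood at 104 and 73.9 CPM in the GA-aFuc mice, 27.6 and 103 CPM in the GITR/Syn GA-aFuc mice, 216 CPM in the N297A mouse and 219.5 CPM in the Untreated mouse. In CD8 cells of the same mice it lay at 0 to 9.34 CPM, so the lowest CD4 value lay above the highest CD8 value. The mean was 124 ± 77.7 CPM in CD4 cells and 3.83 ± 3.71 CPM in CD8 cells (SD, n = 6 mice). By cell, 22 of 64 CD4 cells carried a Cd40lg UMI (34.4%, interval 22.9% to 47.3%), against 11 of 542 CD8 cells (2.03%), 1 of 604 NK cells (0.166%) and 4 of 24 Tregs (16.7%). Of the 22 cells, 18 also carried Cd4 and 2 carried Cd8a or Cd8b1. Pooled Cd40lg was 192 CPM in cells with Cd4 alone, 118 CPM in cells with neither coreceptor, and 0 in cells with Cd8a or Cd8b1 alone, where 3 UMIs would have been 19.2 CPM. Cluster 59 was lower than cluster 35, with 11 and 45 Cd40lg UMIs; without Cd8-carrying cells it stood at 120 CPM, against 185 CPM in cluster 35, which is within 2 fold. The order over groups was 152 CPM in cluster 35, 56.0 CPM in cluster 59 and 50.1 CPM in Tregs; the Poisson intervals of cluster 59 and Tregs, 28.0 to 100.2 and 25.03 to 89.7 CPM, overlapped.

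Rora, a nuclear receptor of helper and innate lymphocytes, also separated the types in each mouse. It reached 561 and 763 CPM in the GA-aFuc mice, 469 and 1185 CPM in the GITR/Syn GA-aFuc mice, 1079 CPM in the N297A mouse and 580.1 CPM in the Untreated mouse. CD8 cells lay at 177 to 222 CPM, below each of the CD4 values, and NK cells at 31.7 to 68.8 CPM. Cluster 59 (754 CPM) and cluster 35 (671 CPM) were alike within the 2-fold limit, and Tregs stood at 401 CPM.

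The costimulatory receptors were less distinct. Icos stood at 441 and 1071 CPM in the GA-aFuc mice, 561 and 515 CPM in the GITR/Syn GA-aFuc mice, 1173 CPM in the N297A mouse and 799.6 CPM in the Untreated mouse, against 329 to 593 CPM in CD8 cells, and the ranges overlapped. Tnfrsf4 stood at 192 and 455 CPM in the GA-aFuc mice, 18.4 and 489 CPM in the GITR/Syn GA-aFuc mice, 566 CPM in the N297A mouse and 439 CPM in the Untreated mouse, against 94.5 to 195 CPM in CD8 cells, with GITR/Syn GA-aFuc 2 below all CD8 values. Both receptors were higher in Tregs, at 1208 CPM for Icos and 821 CPM for Tnfrsf4. GITR itself, the target of the antibodies, was 348 CPM in CD4 cells, 253 CPM in CD8 cells, 109 CPM in NK cells and 789 CPM in Tregs. Across mice, Tnfrsf18 of CD4 cells lay at 55.2 to 644 CPM, and that of CD8 cells at 201 to 280.2 CPM. Cd3e did not set CD4 cells apart from CD8 cells: its means were 355 ± 181 CPM in CD4 cells and 574 ± 79.9 CPM in CD8 cells.

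**Figure D3:**
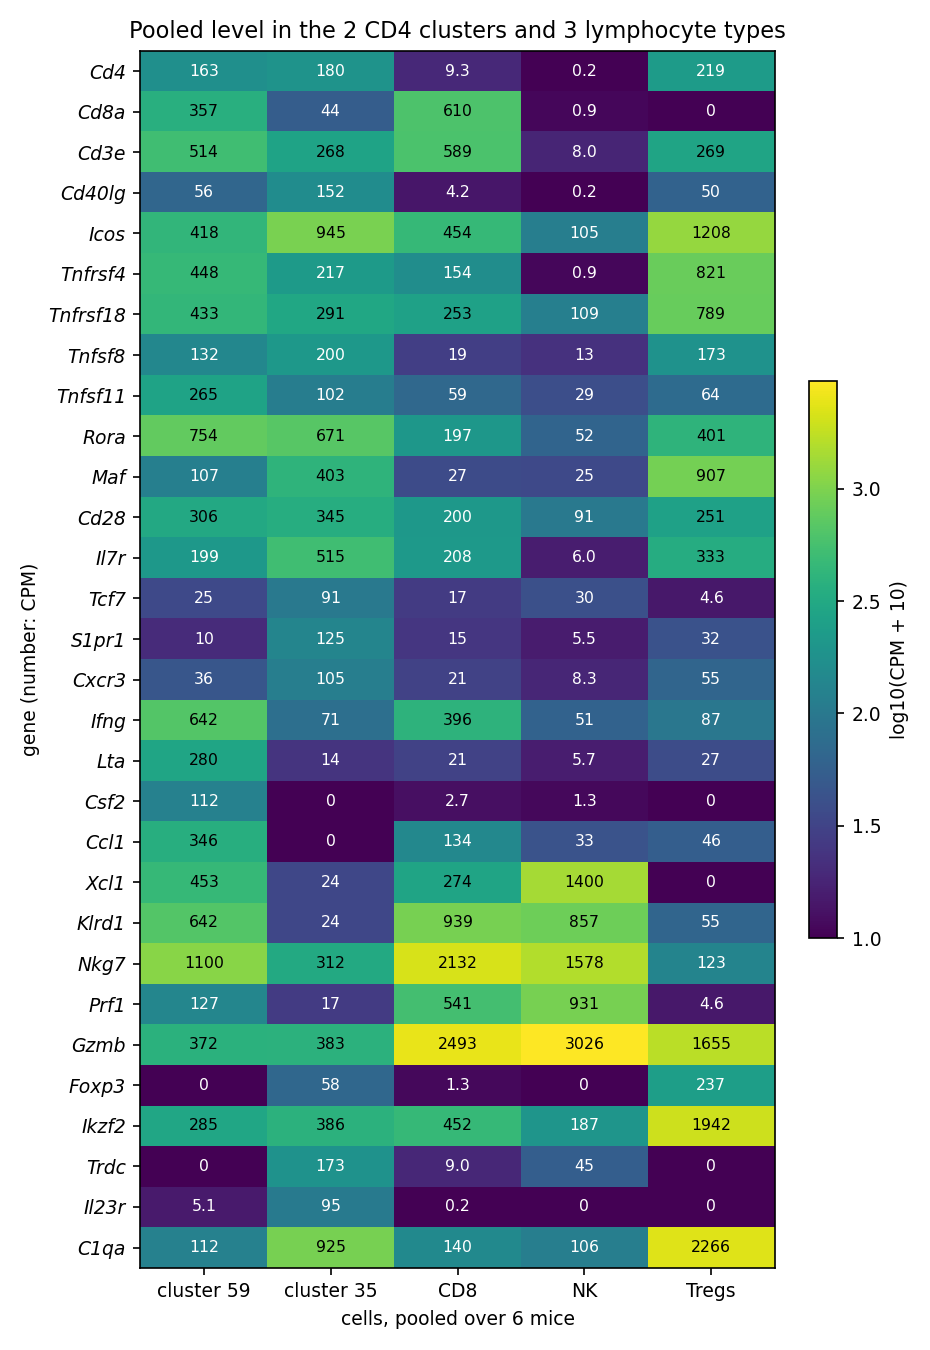
Pooled levels of 30 genes (rows) in cluster 59, cluster 35, CD8, NK and Treg cells of 6 mice (columns); each box gives the CPM and its colour log10(CPM + 10). Cd40lg and Rora are brightest in the CD4 clusters, Gzmb and Nkg7 in CD8 and NK cells, and Foxp3 and Ikzf2 in Tregs.

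Against CD8 cells, 587 of 4654 genes (12.6%) were at least 2 fold higher in CD4 cells and 239 (5.14%) at least 2 fold lower. Against NK cells, 777 of 4704 (16.5%) were higher and 269 (5.72%) lower. Genes far above both types included Igf1r, a growth factor receptor (118 CPM in CD4, 2.74 in CD8 and 4.396 in NK cells), and Maf, a transcription factor of cytokine-producing T cells (285, 26.7 and 25.3 CPM). Tnfsf8, the ligand of CD30, stood at 173 CPM in CD4, 18.7 CPM in CD8 and 12.7 CPM in NK cells. Igf1r and Maf were higher than in CD8 cells in 6 of 6 mice, as were Cpm (carboxypeptidase M), Ramp3 (a receptor-modifying protein), Lgals7 (galectin 7) and Nebl; Tnfsf8 was higher in 5 of 6. Other genes of this kind were Scin, an actin-severing protein, and Btla, an inhibitory receptor. Pooled Scin was 58.99, 1.28 and 0.942 CPM in CD4, CD8 and NK cells. Its UMIs lay in 10 CD4 cells, and 37.9% of them came from 1 cell. Btla was 57.0 CPM in CD4 cells and 6.22 CPM in CD8 cells, with 0 UMIs in NK cells. Without the macrophage-rich cells, Dab2 and Slc8a1, which had stood 3.33 and 3.88 above CD8 cells on the log2 scale, stood at -0.41 and 0.08. Nlrp1b went with the same cells in part, at 4.44 with them and 2.78 without them. Maf did so too, at 3.41 with them and 2.72 without them. In Tregs Maf was higher, at 884 and 954 CPM in 2 mice, against 88.1 to 517 CPM in CD4 cells of 6 mice. Pooled Lgals7 was 128 CPM in Tregs and 65.1 CPM in CD4 cells, though Tregs of those 2 mice had 0 CPM. Igf1r, Cpm, Ramp3, Nebl and Tnfsf8 had lower means in Tregs of those mice than in CD4 cells.

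CD4 cells carried little of the killing machinery. Of 11 cytotoxic genes measured against CD8 cells, 10 were at least 2 fold lower and 0 higher, with a median log2 ratio of -2.99 beside 0.15 over all genes. Gzmb, the granzyme that triggers target cell death, was 378 CPM in CD4, 2493 CPM in CD8 and 3026 CPM in NK cells. Perforin (Prf1), the pore-forming protein, was 61.0 CPM in CD4, 541 CPM in CD8 and 931 CPM in NK cells. Of the NK list, 12 of 12 genes were lower in CD4 than in NK cells, with a median of -7.39. Proliferation genes were lower too, 16 of 19 against CD8 cells with a median of -1.69. For example, Stmn1 stood at 58.99 CPM in CD4 and 409 CPM in CD8 cells, and Top2a at 85.4 CPM in CD4 and 338 CPM in CD8 cells. Without GITR/Syn GA-aFuc 2, 18 of 19 were lower, with a median of -3.00. These directions held without the macrophage-rich cells (8 of 10 cytotoxic and 16 of 19 proliferation genes) and without the Cd8-carrying cells (9 of 10 and 15 of 19).

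Genes of resting and recirculating T cells were higher in CD4 than in CD8 cells. Of 9 naive and memory genes, 6 were at least 2 fold higher and 0 lower, with a median of 1.30. Tcf7, a transcription factor of memory-forming T cells, was 65.1 CPM in CD4 and 16.8 CPM in CD8 cells. S1pr1, the receptor that guides lymphocytes out of tissue, was 79.3 CPM in CD4 and 14.8 CPM in CD8 cells. Of 9 chemokine receptors 6 were higher and 0 lower, with a median of 1.85; Cxcr3 was 77.3 CPM in CD4 and 21.0 CPM in CD8 cells. Of 13 genes induced by antigen receptor signals 7 were higher and 0 lower, with a median of 1.06. Nfkbid was 126 CPM in CD4 and 26.7 CPM in CD8 cells, and Fos, a gene that also answers to tissue dissociation, 360.1 CPM in CD4 and 99.7 CPM in CD8 cells. Interferon-stimulated genes were higher for 7 of 16 and lower for 1, with a median of 0.90, among them Gbp2 (336 CPM in CD4 and 66.2 CPM in CD8 cells) and Iigp1 (459.7 CPM in CD4 and 118 CPM in CD8 cells). Without macrophage-rich cells the counts were 6 of 9, 5 of 7, 6 of 13 and 6 of 16. The 9 macrophage markers measured, all higher than in CD8 cells with a median of 2.36, had a median of -0.14 over 5 genes without those cells.

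Against Tregs, 395 of 5013 genes (7.88%) were at least 2 fold higher in CD4 cells and 529 (10.6%) lower. The 24 Tregs came mainly from N297A 3 (8 cells) and Untreated 3 (11 cells), so mice enter the 2 types in unequal numbers. The macrophage list was lower in CD4 cells than in Tregs for 8 of 9 genes, with a median of -1.54. Summed per mouse, the 6 markers that define macrophage-rich cells lay at 670 to 7486 CPM in CD4 cells of 6 mice. In Tregs of 2 mice these markers lay at 4074 and 16400 CPM. Their part in this comparison was not tested. Of 9 Treg genes, 7 were lower in CD4 cells and 0 higher, with a median of -1.21 beside -0.03 over all genes. Ikzf2, the transcription factor Helios, was 346 CPM in CD4 cells and 1942 CPM in Tregs. Il2ra, the high-affinity IL-2 receptor chain, was 315 CPM in CD4 cells and 666 CPM in Tregs. Itgb8, an integrin that activates TGF-β, had 0 UMIs in CD4 cells and 40 UMIs in 14 of 24 Tregs. Klrg1, a receptor of effector lymphocytes, had 1 UMI in CD4 cells and 28 UMIs in Tregs. Penk, the enkephalin precursor, had 4 UMIs in CD4 cells and 64 in Tregs.

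Naive and memory genes stood higher in CD4 cells than in Tregs for 6 of 10 and lower for 1, with a median of 1.47. Bcl2, a survival factor, was 285 CPM in CD4 cells and 22.8 CPM in Tregs. Genes with no UMI in Tregs were tied to particular cells: Cd8a (83 UMIs) to the Cd8-carrying cells, and Trdc (51 UMIs), Scart1 (43 UMIs) and Il23r (29 UMIs) to 4 to 7 cells each. Nebl, with 40 UMIs in 14 CD4 cells and 0 in Tregs, was found in more cells, but 37.5% of the 40 came from 1 cell. Ifitm1, an interferon-induced antiviral protein, had 183 UMIs in 15 CD4 cells and 1 UMI in Tregs, and was higher in CD4 cells in 3 of 3 mice compared. Of the 183, 40.4% came from 1 cell of GITR/Syn GA-aFuc 2. The CD4 cells of N297A 3 and Untreated 3, the mice with most of the Tregs, had 3 Ifitm1 UMIs each. The pooled Ifitm1 counts therefore set CD4 cells and Tregs of largely different mice side by side. Cytotoxic genes changed with the cells counted: 4 of 8 were higher and 2 lower, with a median of 1.57, but without Cd8-carrying cells 2 of 5 were higher and 2 lower, with a median of 0.10.

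Genes higher in cluster 59 than in cluster 35 included Klrd1, Rgs16 and Ifng. Of 4291 genes, 228 (5.31%) were at least 2 fold higher in cluster 59 and 751 (17.5%) lower. Klrd1, which encodes the CD94 receptor, was the broadest of the 12 genes named: 20 of 25 cluster 59 cells carried it, against 7 of 39 cluster 35 cells, with 126 and 7 UMIs, and it was higher in 6 of 6 mice. Without Cd8-carrying cells the Klrd1 UMIs were 23 in cluster 59 and 5 in cluster 35, with a log2 ratio of 3.44 rather than 4.66. Rgs16, a brake on G protein signals, had 41 UMIs in 14 cluster 59 cells and 2 UMIs in cluster 35, and was higher in 5 of 6 mice. Ifng, the cytokine that activates macrophages, had 126 UMIs in 7 cells of cluster 59 and 21 UMIs in 7 cells of cluster 35, or 642 and 71.1 CPM. It was higher in cluster 59 in 4 of 6 mice. Without Cd8-carrying cells 36 Ifng UMIs were left in cluster 59 and 20 in cluster 35. The log2 ratio of Ifng was 3.15 with all cells, 2.17 without Cd8-carrying cells, 2.47 without macrophage-rich cells, 2.41 without GITR/Syn GA-aFuc 2 and 4.79 without Untreated 3.

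Several of the highest genes rested on few cells. Ccl1, a chemokine, had 68 UMIs in 6 cells of cluster 59 and 0 UMIs in cluster 35, where 3 UMIs would have been 10.2 CPM. Lta, a cytokine of the tumour necrosis factor family, had 55 UMIs in cluster 59 and 4 in cluster 35, but 72.7% of the 55 came from 1 cell of GITR/Syn GA-aFuc 3. Csf2, which encodes GM-CSF and acts on myeloid cells, had 22 UMIs in 3 cluster 59 cells and 0 in cluster 35. Xcl1, a chemokine that attracts cross-presenting dendritic cells, had 89 UMIs in cluster 59 and 7 in cluster 35, and 57.3% of the 89 came from 1 cell. Xcl1 was the single named gene that turned round when Cd8-carrying cells were left out, with a log2 ratio of 4.17 with them and -2.57 without them. Nrgn, Cd160, Csf1, Ccr7 and Ier5l, with log2 ratios of 5.31, 3.76, 3.55, 3.20 and 2.99, were higher in cluster 59 in 3 or 4 of 6 mice. Without Cd8-carrying cells Ccr7 lay at 0.98 and Ier5l at 0.86.

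The list of helper signals, cytokines and ligands by which T cells act on other leukocytes, was higher in cluster 59 for 6 of 10 genes and lower for 2, with a median log2 ratio of 2.26 beside -0.13 over all genes. Without Cd8-carrying cells it was 4 of 7 higher and 0 lower, with a median of 2.17. In that setting 1 cell of GITR/Syn GA-aFuc 3 gave 40 of 47 Lta, 29 of 36 Ifng and 17 of 21 Csf2 UMIs of cluster 59. Cd40lg was one of the 2 lower genes. Heat shock genes were higher for 5 of 8 and lower for 0, with a median of 1.39; Hspa1a stood at 402 CPM in cluster 59 and 13.5 CPM in cluster 35, and its 79 UMIs in cluster 59 all came from 1 cell of GA-aFuc 3. Cytotoxic genes were higher for 5 of 8 and lower for 1, with a median of 1.64, and without Cd8-carrying cells for 2 of 5 and lower for 2, with a median of 0.51. Tnfsf11, the RANK ligand, was 265 CPM in cluster 59 and 102 CPM in cluster 35. The costimulation list, with 5 of 11 higher, kept 1 of 11 higher and 3 lower without the macrophage-rich cells.

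Most interferon-stimulated genes and chemokine receptors measured were lower in cluster 59 than in cluster 35. Of 16 interferon-stimulated genes, 10 were lower in cluster 59 and 1, Ifitm1, was higher, with a median of -1.04 and with the same counts without the macrophage-rich cells. Iigp1 was 122 CPM in cluster 59 and 684 CPM in cluster 35, and Oasl2 56.0 CPM in cluster 59 and 257 CPM in cluster 35. Of 9 chemokine receptors 5 were lower in cluster 59 and 1, Ccr7, higher, with a median of -1.36. Of 9 naive and memory genes 4 were lower in cluster 59 and 1 higher, with a median of -0.40, and of 11 adhesion and tissue genes 1 was lower and 1 higher, with a median of -0.19. S1pr1 was 10.2 CPM in cluster 59 and 125 CPM in cluster 35. Il7r, the receptor for the survival cytokine IL-7, was 199 CPM in cluster 59 and 515 CPM in cluster 35. Maf was 107 CPM in cluster 59 and 403 CPM in cluster 35. Without the macrophage-rich cells, cluster 35 kept 152 CPM of S1pr1 and 650.2 CPM of Il7r, and its Icos was 1132 CPM beside 418 CPM in cluster 59.

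The genes furthest toward cluster 35 included macrophage genes, genes of γδ and innate-like T cells, and Pde7b. Ly86, Mpeg1, App, Lgmn, Fmnl2, Tbxas1, Msr1, Thbs1 and Arg1 include genes typical of macrophages, and the list of macrophage markers was lower in cluster 59 for 9 of 9 genes, with a median of -3.04. Without the macrophage-rich cells it was lower for 1 of 5, with a median of -0.40. The log2 ratio of Arg1 was then -0.83 rather than -5.59, and that of Lgmn, a lysosomal protease, -3.15 rather than -6.02. Trdc (51 UMIs in 5 cells) and Zbtb16, a transcription factor of innate-like T cells (39 UMIs in 6 cells), both had 0 UMIs in cluster 59. Without the macrophage-rich cells Trdc had 45 UMIs in cluster 35, and with cluster 59 at a floor of 3 UMIs its log2 ratio was at most -3.79. Il17a had 21 UMIs in 2 cells of cluster 35, both from GITR/Syn GA-aFuc 2 and both carrying Trdc, and Il23r, a receptor of IL-17-producing cells, stood at 5.09 CPM in cluster 59 and 94.8 CPM in cluster 35. GITR/Syn GA-aFuc 2 gave 47 of the 51 Trdc UMIs. Pde7b, a phosphodiesterase, had 0 UMIs in cluster 59 and 95 UMIs in 8 cells of cluster 35.

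**Figure D4:**
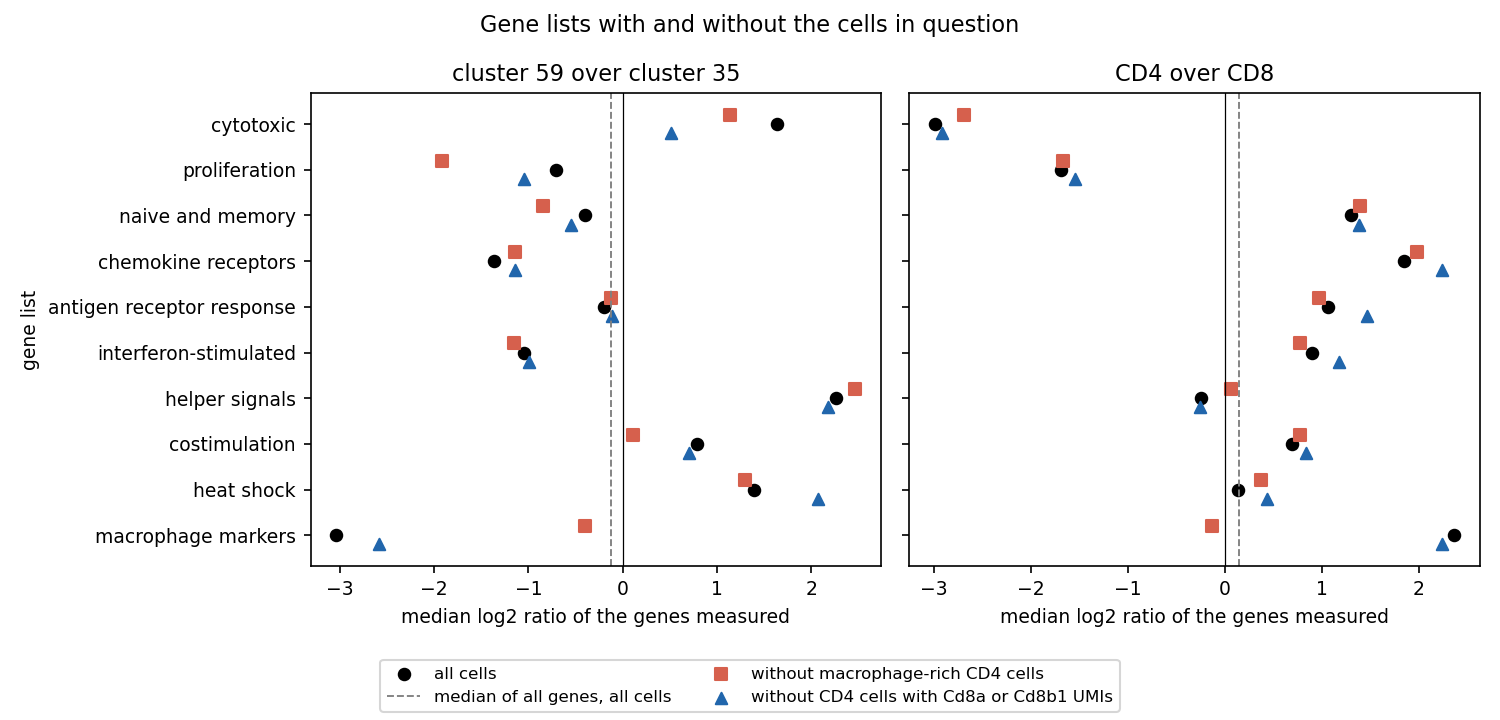
Median log2 ratio (x axis) of the measured genes of 10 lists (y axis) for cluster 59 over cluster 35 (left) and CD4 over CD8 cells (right), with all cells and without the cells named in the legend; the dashed line is the median of all genes. Helper signals lie at 2.26 and heat shock genes at 1.39 in cluster 59 over cluster 35, and the macrophage list, at 2.36 in CD4 over CD8 cells, lies at -0.14 without macrophage-rich cells.

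Over the 10 annotated cell types of library 2, the genes with a pattern most like Cd40lg were Cpm (Pearson r = 0.994), S1pr1 (0.957), Lgals7 (0.944), Raet1e (0.941) and 5031425E22Rik (0.937), computed on log2(CPM + 10) among 4291 genes. These are descriptions over 10 types of unequal depth, the shallowest with 24 cells. Cpm stood at 104 CPM in CD4 cells, 9.15 CPM in CD8 cells, 0.471 CPM in NK cells and 54.7 CPM in Tregs. Cd40lg had 0 UMIs in the 4 dendritic cell types.

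The share of CD4 cells in cluster 59 did not differ detectably between treatments. Over 12 mice of both libraries the GA-aFuc mice averaged 36.5% ± 20.04 and the GITR/Syn GA-aFuc mice 34.6% ± 10.8. The N297A mice averaged 43.96% ± 3.01, and the Untreated mice 38.9% ± 2.41 (SD, n = 3 each). An exact two-sided permutation within libraries gave p = 0.823 over 32400 arrangements. The GA-aFuc mice ranged most, with 33.3% in the mouse of library 1, 57.9% in GA-aFuc 2 and 18.2% in GA-aFuc 3. All 11 cluster 59 cells of GA-aFuc 2 carried Cd8a or Cd8b1 alone. The share was not tested without Cd8-carrying cells, because the counts of library 1 were not analysed. Without GA-aFuc 2 the exact p was 0.0506. The 2 libraries had like shares, 39 of 97 cells (40.2%) in library 1 and 25 of 64 (39.1%) in library 2. Both libraries held each treatment, and the test permuted mice within them.

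**Figure D5:**
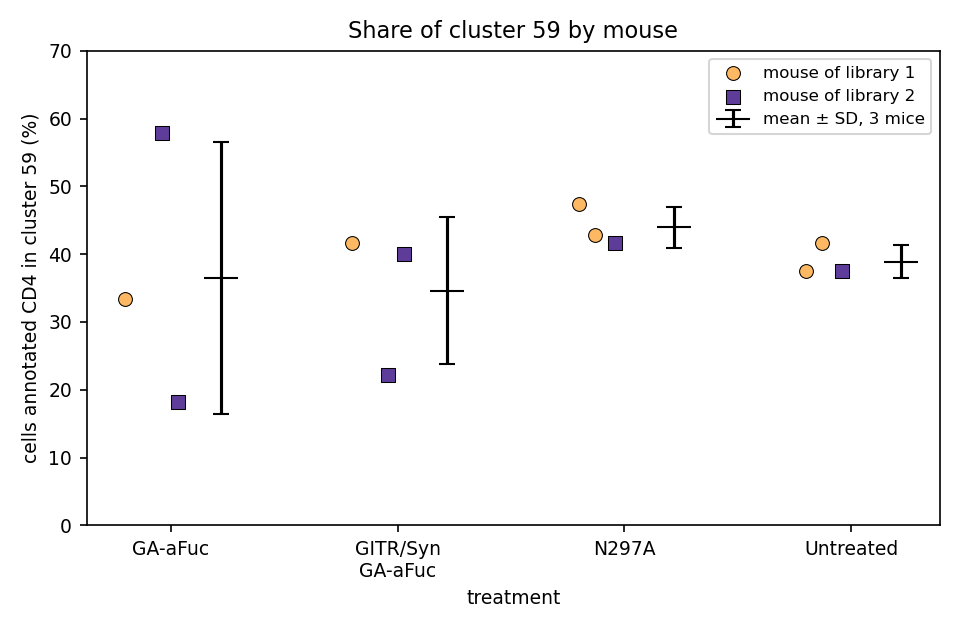
Percent of cells annotated CD4 that lie in cluster 59 (y axis) for each mouse of 4 treatments (x axis), by library, with mean ± SD of 3 mice. The GA-aFuc mice span 18.2% to 57.9%, and the other treatments lie inside that span.

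Hashtag antibodies mark surface proteins of leukocytes and are counted apart from the genes; whether they entered the cell labels is not stated in the files. Per mouse, the median log2 hashtag count of CD4 cells differed from that of CD8 cells by -0.23 ± 0.26 (SD, n = 6 mice), lower in 5 of 6 mice (exact sign-flip test, p = 0.0625, adjusted p = 0.125). CD4 cells differed from NK cells by 0.16 ± 0.26, higher in 4 of 6 mice (exact p = 0.25, adjusted p = 0.25). Neither passed, and scaled per 1000 gene UMIs the difference from CD8 cells turned round to 0.041 (exact, adjusted p = 0.5625); the smallest p that 6 mice allow is 0.03125. Without macrophage-rich cells the differences were -0.39 from CD8 cells and 0.0051 from NK cells (exact, adjusted p = 0.0625 and 1). GITR/Syn GA-aFuc 2, with 4 macrophage-rich cells, was the mouse with a higher CD4 than CD8 median, at 2681 against 2265 hashtag counts.

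No gene of the CD4 cells passed between treatments with all 6 mice. Raw counts summed per mouse gave 2744 genes over 6 mice, and edgeR's quasi-likelihood test with Benjamini-Hochberg adjustment called 0 genes (0%) in each of 5 contrasts. At an unadjusted edgeR p under 0.05 there were 56 genes for GA-aFuc against Untreated, 44 for GA-aFuc against N297A, 42 for GITR/Syn GA-aFuc against Untreated, 83 for GITR/Syn GA-aFuc against GA-aFuc and 71 for N297A against Untreated. Each count is below a share of 0.05 of the 2744 genes, which chance alone would give. DESeq2 called 0 in each. With 2 residual degrees of freedom the test had little reach: in 10 simulated sets for GA-aFuc against Untreated on 2744 genes, it recovered 0 of 1000 genes set 2 fold apart and 153 of 1000 set 8 fold apart. The single N297A and Untreated mice were assumed to vary like the paired treatments. In the order of contrasts just given, edgeR called 21, 14, 29, 22 and 28 genes without GITR/Syn GA-aFuc 2, 5, 6, 1, 7 and 1 without GA-aFuc 2, and 10, 1, 2, 21 and 9 without GA-aFuc 3. It called 0 without GITR/Syn GA-aFuc 3, and 0 without N297A 3 or Untreated 3 in the contrasts that could then be fitted.

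Among the genes with the smallest p, given as values that did not pass, Ifitm1 lay at 322 and 653 CPM in the GA-aFuc mice, 973 and 581 CPM in the GITR/Syn GA-aFuc mice, 51.2 CPM in the N297A mouse and 57.4 CPM in the Untreated mouse, over UMIs of the genes kept in this test. All 4 mice given an enhanced Fc part lay above the other 2, and GITR/Syn GA-aFuc 2 owed most of its 83 UMIs to 1 cell. Its log2 fold change was 3.03 ± 0.89 (SE) for GA-aFuc against Untreated (edgeR adjusted p = 0.9999). Gzmb lay at 152 and 122 CPM in the GITR/Syn GA-aFuc mice, against 1058 and 638 CPM in the GA-aFuc mice (-2.58 ± 0.55, edgeR adjusted p = 0.991). In the same contrast Cd8a lay at -3.98 and Cd8b1 at -2.86. Of the 19 GA-aFuc 2 cells, 13 carried Cd8a or Cd8b1 alone, against 0 of the 11 GA-aFuc 3 cells. With and without Cd8-carrying cells edgeR called 0 genes in each contrast, so Gzmb passed in neither fit. The fold change of Gzmb without those cells is not given here. Whether it differed between the fits was not tested. The N297A and Untreated mice had 85.3 and 364 CPM of Gzmb on the same scale. H2-Ab1, a chain of MHC class II, lay at 176 and 104 CPM in the GA-aFuc mice, against 1549.9 CPM in the Untreated mouse (-3.43 ± 0.98, edgeR adjusted p = 0.9999), and was 1653 CPM in GITR/Syn GA-aFuc 2, where 4 of 9 cells were macrophage-rich. For GA-aFuc against Untreated the macrophage list had a median of -2.23, with 3 of 8 genes at an unadjusted edgeR p under 0.05. Over all genes the median was 0.04, with 56 of 2744 under that limit. Of the 8 Untreated 3 cells, 1 was macrophage-rich. With and without macrophage-rich cells edgeR called 0 genes in each contrast, so H2-Ab1 passed in neither fit. The fold change of H2-Ab1 without those cells is not given here. Whether it differed between the fits was not tested. Without GITR/Syn GA-aFuc 2, Ifitm1 passed for GA-aFuc against Untreated and against N297A, at 3.01 and 3.20, and Gzmb passed for GITR/Syn GA-aFuc against GA-aFuc, at -2.72; each rests on few mice. Without GA-aFuc 3, Gzmb passed in the same contrast at -2.85. H2-Ab1 passed for GA-aFuc against Untreated at -3.44 without GITR/Syn GA-aFuc 2 and at -3.89 without cluster 59. With no filter on low counts, H2-Ab1 and Gzmb passed in these contrasts too, at -3.29 and -2.73. Dthd1 was 614 CPM in the N297A mouse, with 36 UMIs, and at most 153 CPM in the others. Cd40lg did not pass in GA-aFuc against Untreated mice (-1.22 ± 0.80, edgeR adjusted p = 0.9999) or against the N297A mouse (-1.25 ± 0.79, edgeR adjusted p = 1).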

How the data were processed

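CD45-sorted tumour cells of several mice were hashed and run through a 3′ droplet assay, per the labels' protocols. The deposited values are UMI counts of all droplets, written by Cell Ranger 9.0.0 (per the file headers), with GRCh38 and GRCm39 as builds (per the submitters' processing notes; 72308 features: 38606 human, 33696 mouse and 6 hashtags). The authors' labels (treatment, type and cluster of 19210 cells) come as a deposited table. The basis of those labels and the handling of doublets are not stated in the files, and doublets were not called here. Mice were taken from 12 runs of sorted barcodes in that table, which the hashtags matched in 10476 of 10476 cells of library 2; the numbers follow the order of the runs. The counts of library 1 were not analysed here. Of the barcodes, 34 are annotated in both libraries, among them 0 of the library 2 CD4 cells.

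Counts were pooled per cluster or type as CPM, and log2 ratios were taken with 0.5 UMI added to each sum, among genes with at least 20 UMIs observed or expected in CD4 cells (in both clusters together for the cluster comparison). A median log2 ratio of a list covers its genes measured so. Intervals of shares are Clopper-Pearson and those of levels Poisson, both at 95%; all cover counting error only. Cells with at least 0.5% of UMIs in C1qa, C1qb, C1qc, Apoe, Csf1r and Adgre1 were left out in an alternative added after seeing the data. The macrophage list of the list medians also held Cd68, Lyz2, Ms4a7 and Mrc1. Treatment contrasts used edgeR 4.0.16 (filterByExpr, TMM, glmQLFit, glmQLFTest) on counts summed per mouse, with DESeq2 1.42.0 as an alternative, in R 4.3.3; an SE is the size of the fold change over the root of its F statistic. Replicates are mice; p-values measure the spread between them. Python 3.11.15, numpy 2.4.6, pandas 2.3.3 and scipy 1.17.1 gave the other values. The ratio was tested on simulated counts for cluster 59 over cluster 35 (4320 genes): 49 of 49 genes set 4 fold higher and 45 of 50 set 4 fold lower passed 2 fold, while 69 of 4128 unchanged genes passed as higher and 91 as lower. The simulated sums were Poisson draws with no spread between cells or mice. They therefore cover counting error only and do not give the rate of false passes in the real counts.

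The genes named are the markers, members of the lists, up to 12 genes at each end of the cluster ratio with UMIs in at least 4 cells, up to 15 with the highest smaller ratio over CD8 and NK cells among those with at least 10 CD4 cells, up to 10 at each end against Tregs, and the 5 smallest p per contrast; a gene that this rule names is not reported here. The members, lists, tests and alternatives were chosen with earlier results of these data known. Alternatives were other minimum counts, thinned cells, equal weights of mice, cells or mice left out, other hashtag scales and other fits.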

Additional observations from a re-analysis of the deposited data

Results flagged for a closer look

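In 13 of 48 sets of values over 6 mice, 1 mouse lay far from the others (Dixon's test at 95%). For normally spread values chance sets this test off in about 1 of 20 sets. Many of the sets rest on few UMIs, with 0 in some mice, so that rate need not hold here. In CD4 cells of GA-aFuc 2, Cd8a and Cd8b1 each reached 600.7 CPM and Prf1 192 CPM. In GITR/Syn GA-aFuc 3, Lta reached 1056 CPM, Csf2 438 CPM and Nebl 386 CPM; this mouse gave 5 CD4 cells. In N297A 3, Btla reached 216 CPM, Lgals7 229 CPM and Gzma 108 CPM. In GITR/Syn GA-aFuc 2, Dab2 reached 533 CPM and Trdc 432 CPM, and the hashtag difference of CD4 minus CD8 cells was 0.24 on the log2 scale, the single value above 0. In GA-aFuc 3, Foxp3 reached 160.0 CPM.

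Outside the annotation, 96 of 5815 library 2 barcodes with at least 500 UMIs carried Cd3e and Cd4 UMIs with no Cd8a or Cd8b1 UMI. Their median was 11305 UMIs, 26 carried Foxp3, 35 were macrophage-rich and 60 had at least 80% of hashtag counts in 1 hashtag. By the highest hashtag, 14 and 16 fell to the GA-aFuc mice, 13 and 10 to the GITR/Syn GA-aFuc mice, 24 to the N297A mouse and 19 to the Untreated mouse.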

How the results depend on the processing

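The cells are few, and the number of genes past 2 fold moved with the cells and the minimum count. For cluster 59 over cluster 35 it was 228 higher and 751 lower, of 4291 genes tested. It was 497 higher and 1227 lower with a minimum of 10 UMIs, 107 and 390 with 40 UMIs, and 37 and 154 with thinned cells. The numbers of genes tested with these minimum counts and with thinned cells are not given here. Those counts therefore do not show whether the share of genes past 2 fold changed. Without macrophage-rich cells 432 were lower, of 3327 genes tested. Without those cells 311 genes were higher than in CD8 and 516 higher than in NK cells. Against Tregs, 764 were higher with equal weights of mice, 337 lower without Cd8-carrying cells and 247 lower without cluster 59. Without the filter on low counts, edgeR called 11 genes for GA-aFuc against Untreated, 5 for GA-aFuc against N297A, 2 for GITR/Syn GA-aFuc against Untreated, 22 for GITR/Syn GA-aFuc against GA-aFuc and 6 for N297A against Untreated; without cluster 59 it called 2 in the first and 7 in the fourth. The cause was not tested.

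Leaving out 1 mouse gave 0 to 21 calls for GA-aFuc against Untreated, 0 to 14 for GA-aFuc against N297A, 0 to 29 for GITR/Syn GA-aFuc against Untreated, 0 to 22 for GITR/Syn GA-aFuc against GA-aFuc and 0 to 28 for N297A against Untreated, with the highest without GITR/Syn GA-aFuc 2. It gave 214 to 246 genes higher and 542 to 754 lower for cluster 59 over cluster 35, 404 to 601 and 192 to 215 for CD4 over CD8, 574 to 760 and 224 to 260 for CD4 over NK, and 332 to 448 and 356 to 569 for CD4 over Tregs. The share of cluster 59 had an exact p of 0.0506 to 0.933, and the hashtag differences ran from -0.33 to -0.17 against CD8 and 0.092 to 0.23 against NK cells. Scaled per 1000 gene UMIs, the CD8 hashtag difference reversed to 0.041 (exact, adjusted p = 0.5625). Fits without N297A 3 or Untreated 3 could not be made for the contrasts of those mice.

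Single genes that reversed were Xcl1 between clusters (-2.57 without Cd8-carrying cells), Dab2 over CD8 (-0.41) and NK cells (-0.39), Slc8a1 over NK cells (-0.00827) and F13a1 over Tregs (-0.80), all 4 without macrophage-rich cells; Cd8a over Tregs (-0.56 without Cd8-carrying cells); and Cd40lg over Tregs (-0.76 with equal weights and -0.20 to 2.15 with 1 mouse left out, the lowest without Untreated 3). Of the other alternatives, 975 of 1053 values of single genes were counted as unchanged. For treatment contrasts this meant the same side of the limit, since a turn in direction was counted only for genes that passed. No paired analysis was possible because the replicate numbers only name mice in the order of the runs and do not tie a mouse of 1 treatment to a mouse of another.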
